A study of Homo sapiens with 15 samples.

Results

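DNA replication and S phase genes were followed across the knockdown of 4 chromatin factors in LNCaP cells, a human prostate cancer line that responds to androgen. The 42 genes were listed by name, with earlier results of these data known. All 42 stood among the 26443 genes with values in the deposited table. They code for proteins that mark and license replication origins, unwind and copy DNA, supply deoxynucleotides, drive entry into S phase and pack the new DNA into nucleosomes. Gene expression had been measured by RNA sequencing in 15 libraries, 3 for each of 5 groups. All groups were LNCaP cells labelled wild type in genotype and infected with lentivirus for 4 to 5 days. The virus carried a short hairpin RNA against PALI1 (shPALI1), G9a (shG9a), JARID2 (shJarid2) or SUZ12 (shsuz12), or the control construct pLKO. The labels name 1 hairpin per target, so loss of the target and any other effect of that hairpin cannot be told apart. The comparisons ask how these genes stand under loss of each factor, and whether the 4 knockdowns differ in this from each other.

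As background, replication starts when the origin recognition complex, CDC6 and CDT1 load the MCM2-7 helicase onto origins in G1. Geminin, the GMNN product, then blocks CDT1 so that origins are not licensed again. In S phase, CDC45 and the GINS complex join MCM2-7 to form the active helicase. Primase and polymerase alpha lay down primers, the RFC complex loads the PCNA clamp, and polymerases delta and epsilon copy the strands. Transcription of many of these genes is switched on before S phase by E2F factors, which are held back by the RB protein until cyclin-dependent kinases release them. SUZ12 is a core subunit and JARID2 an accessory subunit of PRC2, which methylates lysine 27 of histone H3. PALI1, a product of the LCOR locus, binds PRC2, and G9a, the EHMT2 product, methylates lysine 9 of the same histone.

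The values are RPKM, read numbers per kilobase of a gene and per library size. Depth, worked out from the steps of 1 read in short RNA genes, was 10.56 to 19.36 M reads per library. For a gene 2 kb long, 1 RPKM was thus worth 21.1 to 38.7 reads. In each group the gene named by the hairpin was lower than in pLKO: C10orf12, the row that distinguishes PALI1, stood at 23.8% of its pLKO mean in shPALI1 and LCOR, another row of that locus, at 60%, EHMT2 at 25.7% in shG9a, JARID2 at 18.3% in shJarid2 and SUZ12 at 12.5% in shsuz12. Some of these genes also changed under other hairpins in the limma fit described below. EHMT2 fell in shJarid2 (71.5% of pLKO, adjusted p = 0.00099) and shsuz12 (80.3%, adjusted p = 0.0147). JARID2 (141%, adjusted p = 0.00022) and LCOR (158%, adjusted p = 0.00505) rose in shsuz12. Replicate 3 of shJarid2 stood apart from its group, with correlations across genes of 0.975 and 0.978 with the others, against 0.986 to 0.992 for other pairs of replicates. All 10 markers of LNCaP and luminal prostate epithelium were at 21.1 RPKM or more in every library. Their summed level, to which KLK3 gave 262 to 1160 RPKM, was 926 to 1038 RPKM in shPALI1, 1128 to 1194 in shG9a, 1737 to 2047 in shJarid2, 1405 to 1511 in shsuz12 and 2143 to 2361 in pLKO. Counted by gene against pLKO, 1 rose and 8 fell in shPALI1, 2 rose and 6 fell in shG9a, 5 rose and 3 fell in shJarid2 (median log2 change 0.28, unlike the sum), and 1 rose and 7 fell in shsuz12. Under 1 RPKM in every library were 5 of 6 immune, 3 of 4 endothelial, 3 of 6 fibroblast, 2 of 3 basal prostate and 1 of 3 neuroendocrine markers. Of the defining ones, PTPRC reached 0.018, PECAM1 0.0747, COL1A2 0.0269, TP63 0.0111 and CHGA 0.144 RPKM, and CD3E was listed at 0. Others of these lists were measurable over the libraries: CD68 at 2.03 to 4.85, VWF at 0.436 to 2.38, COL1A1 at 1.14 to 5.45, COL3A1 at up to 2.19, LUM at up to 1.4, SYP at 0.286 to 5.05 and ENO2 at 6.06 to 12.1 RPKM. The summed basal list was 3.41 to 4.86 RPKM in shJarid2, nearly all of it KRT14, and at most 0.593 RPKM in any other library. The summed neuroendocrine list was 6.8 to 7.78 RPKM in shPALI1, 12.7 to 14.3 in shG9a, 6.76 to 12.1 in shJarid2, 13.3 to 14.2 in shsuz12 and 7.92 to 10.1 in pLKO. The immune list summed to at most 4.94, the endothelial list to at most 2.48 and the fibroblast list to at most 6.18 RPKM. The part of these markers in the results was not tested.

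Promoters of these genes are known for E2F sites, so the RefSeq windows on GRCh38.p14, from 250 bases before to 50 bases after a transcription start, were searched on both strands for E2F-type words and for the CCAAT box, whose letters are those of its name. The first E2F-type word searched was TTCGCGC. The next form searched was TTGGCGC. Another was TTCCCGC. The last of the 4 forms was TTGCCGC. An E2F-type word can overlap its own reverse complement, and both were then counted. Windows were found for 37 of the 42 genes, and MCM4, MCM5, GINS4, RPA2 and CCNE2 had no entry. An E2F-type word stood in the window of 31 of the 37 genes (83.8%), against 2319 of 9179 genes tested with a window (25.3%) and 13.0% of all 35116 windows. Of the mitotic genes described below, 5 of 22 held one (22.7%). At least 2 such words stood in 13 of the 37 (35.1%), against 4.0% of all genes tested. For the CCAAT box the shares were 62.2% of these genes, 81.8% of mitotic genes and 43.7% of all genes tested.

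The 5 windows below are shown because their genes went different ways under the hairpins: CDT1 and MCM2 followed the general fall, GINS1 and UNG did not follow it in every group, and E2F1 codes for one of the E2F factors. Each runs 5′ to 3′ on the strand of its gene, with E2F-type words of either strand in capitals. They lie at chr16:88803539-88803838 on the plus strand (CDT1), chr3:127598161-127598460 on the plus strand (MCM2), chr20:25407423-25407722 on the plus strand (GINS1), chr20:33686336-33686635 on the minus strand (E2F1) and chr12:109097347-109097646 on the plus strand (UNG), all on GRCh38.p14.
CDT1: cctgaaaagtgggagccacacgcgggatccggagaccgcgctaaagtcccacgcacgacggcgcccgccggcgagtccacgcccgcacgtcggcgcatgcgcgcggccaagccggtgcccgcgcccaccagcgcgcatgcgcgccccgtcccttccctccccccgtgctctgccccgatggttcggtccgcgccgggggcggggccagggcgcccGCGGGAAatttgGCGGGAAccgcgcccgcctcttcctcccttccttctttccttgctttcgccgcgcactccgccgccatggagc
MCM2: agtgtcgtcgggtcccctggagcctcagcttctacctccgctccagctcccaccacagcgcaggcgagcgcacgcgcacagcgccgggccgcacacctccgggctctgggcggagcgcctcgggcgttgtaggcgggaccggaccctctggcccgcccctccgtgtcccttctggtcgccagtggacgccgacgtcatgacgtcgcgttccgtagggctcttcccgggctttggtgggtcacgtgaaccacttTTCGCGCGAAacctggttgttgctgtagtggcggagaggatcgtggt
GINS1: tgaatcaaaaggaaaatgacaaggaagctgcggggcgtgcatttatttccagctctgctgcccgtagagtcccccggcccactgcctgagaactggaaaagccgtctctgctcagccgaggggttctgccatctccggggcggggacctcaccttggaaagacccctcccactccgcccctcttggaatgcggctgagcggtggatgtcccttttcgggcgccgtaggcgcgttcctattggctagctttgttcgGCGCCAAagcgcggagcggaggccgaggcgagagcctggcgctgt
E2F1: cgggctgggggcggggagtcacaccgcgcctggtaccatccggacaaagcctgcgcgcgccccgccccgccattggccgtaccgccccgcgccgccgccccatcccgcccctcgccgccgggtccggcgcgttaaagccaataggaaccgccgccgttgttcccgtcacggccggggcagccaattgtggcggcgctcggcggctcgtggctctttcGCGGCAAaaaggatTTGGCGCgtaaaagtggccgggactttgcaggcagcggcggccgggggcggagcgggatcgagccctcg
UNG: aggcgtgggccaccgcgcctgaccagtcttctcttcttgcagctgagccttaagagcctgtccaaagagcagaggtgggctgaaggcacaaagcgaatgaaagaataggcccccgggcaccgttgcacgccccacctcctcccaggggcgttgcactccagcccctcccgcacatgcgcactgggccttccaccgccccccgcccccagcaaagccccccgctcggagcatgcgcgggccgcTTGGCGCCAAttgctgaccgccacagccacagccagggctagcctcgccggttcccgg
The capitals of MCM2 and UNG are each a word that overlaps its own reverse complement, and in UNG a CCAAT box overlaps them at its end. CDT1 held its pair of words upstream of the start, and E2F1 held one on each strand. A match is a description of letters, not of a bound site.

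In 1 window per gene, 39 of the 50 E2F-type words of these genes (78.0%) were centred from 100 bases before to 50 bases after the start, against 1433 of 2729 (52.5%) for all genes tested. The 6 genes with a window and no such word were ORC6, MCM10, CDC45, POLD1, FEN1 and CCNE1. Their median log2 change against pLKO was -0.36 in shPALI1, -0.48 in shG9a, -0.75 in shJarid2 and -1.18 in shsuz12. The 31 genes with a word had medians closer to 0, at -0.23, -0.32, -0.52 and -0.81 in the same order. These medians describe 6 and 31 genes and were not tested.

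**Figure D1:**
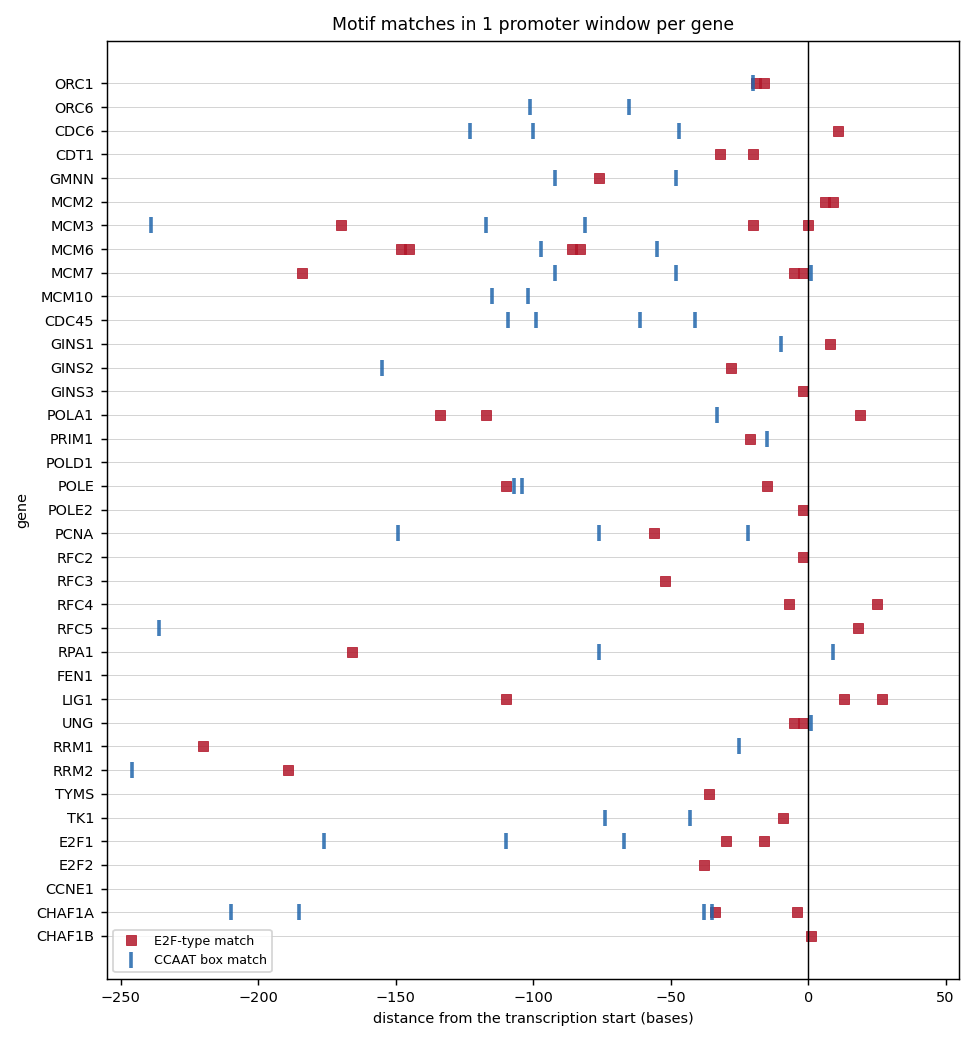
E2F-type words (red squares) and CCAAT boxes (blue ticks) by distance in bases from the transcription start (x axis), in 1 window for each of the 37 genes with an entry (y axis). The red squares gather near the start: 39 of 50 lie from 100 bases before it to 50 after, and 6 genes have none.

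All 42 genes passed the filter on low values, which asked for 1 RPKM or more in 3 libraries or more, as did 12715 genes in all. Changes are differences of log2(RPKM + 1), which are smaller than the ratio of RPKM for low genes. A gene rose or fell where the adjusted p of the limma fit over all 15 libraries was under 0.05. Nothing in the labels says that replicates came from separate cultures, so these p-values measure the spread between libraries, and that may be technical.

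Most replication genes fell under every hairpin, fewest and least with shPALI1 and shG9a, most and furthest with shsuz12. In shPALI1, 28 of 42 fell and 2 rose, beside 25.1% of all genes that fell and 16.5% that rose. The median log2 change of the 42 was -0.29, with a range of -0.96 to 0.37, against -0.05 for all genes tested. In shG9a, 28 fell and 3 rose, beside 24.7% and 18.4% of all genes, with a median of -0.36 (range -1.44 to 0.42) against -0.04. In shJarid2, 38 fell and 0 rose, beside 27.2% and 23.8%, with a median of -0.55 (range -1.06 to 0.01) against -0.04. In shsuz12, 39 fell and 0 rose, beside 32.8% and 21.1%, with a median of -0.85 (range -1.62 to -0.08) against -0.08. The rises were few. That of GINS3 kept its call in shPALI1 and shG9a under every alternative run, and the others were unsteady. In shPALI1, 1 rise was left without pLKO replicate 1, pLKO replicate 3, shPALI1 replicate 1 or shPALI1 replicate 2, while quantile normalization gave 4. In shG9a, 1 was left without shG9a replicate 1 or shG9a replicate 2. These 4 comparisons share the pLKO libraries, so they are not independent of each other. In bulk RNA, fewer cells in S phase and less of these RNAs per cell cannot be told apart.

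Falls of at least 1.5-fold, a log2 change of -0.585 or below, separated the hairpins more. They were seen in 7 of 42 genes in shPALI1 (8.07% of all genes), 5 in shG9a (7.97%), 19 in shJarid2 (10.4%) and 33 in shsuz12 (12.8%). At this threshold shG9a lay near the share of all genes, and shPALI1 nearer to it than shJarid2 and shsuz12 did. All 3 libraries lay below all 3 pLKO libraries for 30 genes in shPALI1 (32.6% of all genes), 31 in shG9a (33.2%), 35 in shJarid2 (27.8%) and 40 in shsuz12 (38.0%). The lowest of the 5 group means was in shsuz12 for 33 of the 42 genes, against 26.2% of all genes tested, and the highest was in pLKO for 35, against 18.7% of all genes. Without shJarid2 replicate 3, 39 genes changed in shJarid2, where 51.0% of all genes had changed with all libraries. Rescaling to a common sum (TPM) moved the median of all genes by 0.10 in shG9a and 0.11 in shsuz12. It turned the split over all genes to 3126 higher and 2278 lower in shG9a, against 2338 and 3139 with RPKM, and to 3413 higher and 3026 lower in shsuz12, against 2683 and 4171. Of the 42 genes, 3 then rose and 21 fell in shG9a, and 0 rose and 37 fell in shsuz12.

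**Figure D2:**
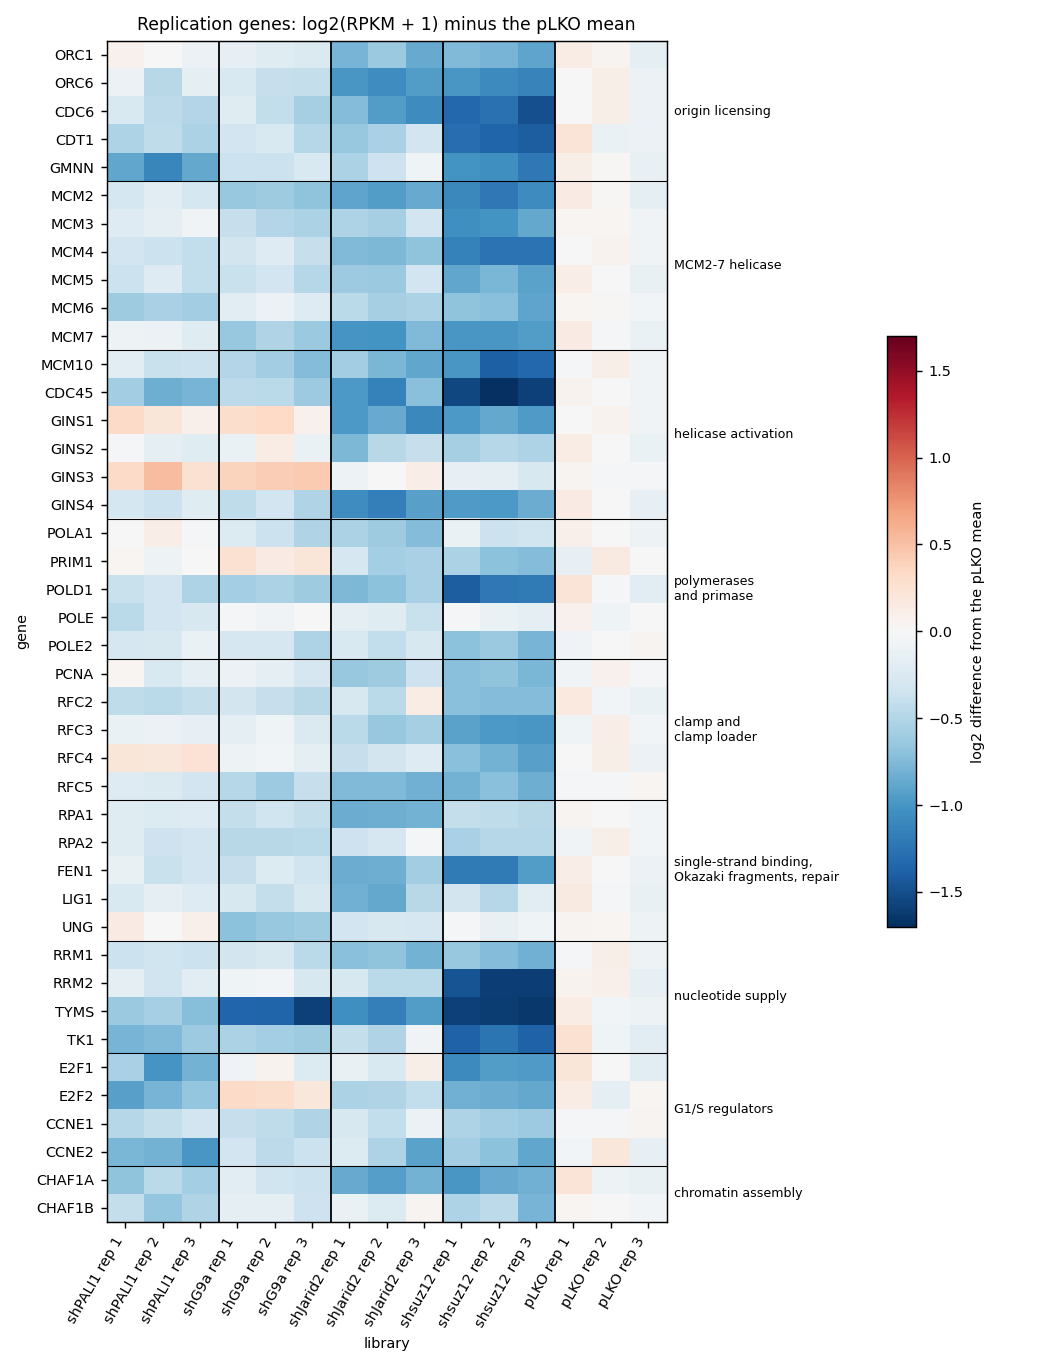
Log2(RPKM + 1) minus the pLKO mean for the 42 genes (rows, grouped by role) in the 15 libraries (columns); blue is lower and red higher than pLKO. Blue deepens in the shJarid2 and shsuz12 columns. Red or pale red in every library of a group are GINS3 and GINS1 in shPALI1 and shG9a, RFC4 in shPALI1, and E2F2 and PRIM1 in shG9a.

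Origin licensing genes fell under every hairpin, with CDT1 and CDC6 lowest in shsuz12 and GMNN low in shPALI1 too. Of 5 genes, 4 fell in shPALI1, 4 in shG9a and 5 each in shJarid2 and shsuz12, and none rose. ORC6, a subunit of the origin recognition complex, had 15.1, 11.4 and 14.5 RPKM in shPALI1, 13.4, 12.1 and 12 in shG9a, 7.68, 7.30 and 7.95 in shJarid2, 7.65, 7.15 and 6.84 in shsuz12, against 16.3, 17.5 and 15.1 in pLKO. All libraries of shJarid2 and shsuz12 lay under 8 RPKM and all pLKO libraries above 15, and the log2 change was -1.0 ± 0.09 SE in shJarid2 (adjusted p = 8.3e-07) and -1.07 ± 0.09 SE in shsuz12 (adjusted p = 4.3e-07). CDT1, which brings MCM2-7 to the origin, had 11.5, 12.3 and 11.5 RPKM in shPALI1, 13.4, 14 and 11.8 in shG9a, 10.5, 11.3 and 13.3 in shJarid2, 6.33, 6.0 and 5.84 in shsuz12, against 19.9, 15.7 and 15.8 in pLKO. No CDT1 library of the knockdowns reached the lowest pLKO library. Its mean fell to 35.3% of pLKO in shsuz12 (-1.35 ± 0.10 SE, adjusted p = 9.2e-08), and its log2 change was -0.50 in shPALI1 (adjusted p = 0.00112), -0.36 in shG9a (adjusted p = 0.0096) and -0.51 in shJarid2 (adjusted p = 0.00064).

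CDC6, the other loading factor, fell, with log2 changes of -0.40 in shPALI1, -0.39 in shG9a, -0.92 in shJarid2 and -1.36 in shsuz12. GMNN, the inhibitor of CDT1, averaged 16.1 ± 1.6 RPKM in shPALI1, 25.3 ± 1.2 in shG9a, 25.7 ± 4.4 in shJarid2, 14.6 ± 1.1 in shsuz12, against 32.1 ± 2.6 in pLKO. Its fall in shPALI1 (-0.96 ± 0.11 SE, adjusted p = 9.9e-06) was the deepest of all 42 genes in that comparison. ORC1, the largest subunit of the origin recognition complex, fell in shJarid2 (-0.76, adjusted p = 7.2e-06) and shsuz12 (-0.81, adjusted p = 3.6e-06) and stood at 98.6% and 85% of pLKO in shPALI1 and shG9a without a call. It passed in shG9a without pLKO replicate 3 (adjusted p = 0.0214). The fall of ORC6 was -0.24 in shPALI1 (adjusted p = 0.0487) and -0.35 in shG9a (adjusted p = 0.00696). In shPALI1 it was lost without pLKO replicate 1, pLKO replicate 2 or shPALI1 replicate 2 (adjusted p 0.0977 to 0.24) and with a pseudocount of 0.1, a pseudocount of 0.5, no filter, median ratio scaling, quantile normalization, TPM or a fit of the 6 libraries alone (adjusted p 0.0501 to 0.17), and in shG9a with TPM (adjusted p = 0.0561). The shG9a calls of CDC6 and CDT1 were lost without shG9a replicate 3 (adjusted p = 0.0534) and with TPM (adjusted p = 0.0892) for CDC6 and without shG9a replicate 3 (adjusted p = 0.0509) for CDT1. The GMNN call in shG9a (-0.33, adjusted p = 0.0245) was lost without pLKO replicate 1, pLKO replicate 2, shG9a replicate 1 or shG9a replicate 2 (adjusted p 0.0638 to 0.0905) and with no filter or TPM (adjusted p 0.0547 to 0.0652), and that in shJarid2 (-0.32, adjusted p = 0.0246) without pLKO replicate 1, pLKO replicate 2, shJarid2 replicate 1 or shJarid2 replicate 2 (adjusted p 0.0624 to 0.12) and with no filter, median ratio scaling or a fit of the 6 libraries alone (adjusted p 0.0506 to 0.0995).

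The 6 subunits of the MCM2-7 helicase fell together in shJarid2 and shsuz12, where all 6 passed. In shPALI1, 4 fell, and in shG9a, 5 fell. MCM4 had 27.0, 26.2 and 25.2 RPKM in shPALI1, 27.1, 29.0 and 25.7 in shG9a, 19.9, 19.7 and 20.9 in shJarid2, 14.8, 13.6 and 13.7 in shsuz12, against 34.2, 35.4 and 32.5 in pLKO. All knockdown libraries lay below pLKO, shPALI1 and shG9a overlapped each other, and shJarid2 and then shsuz12 lay below these. The log2 change of MCM4 was -1.22 ± 0.06 SE in shsuz12 (adjusted p = 5e-09), -0.73 ± 0.06 SE in shJarid2 (adjusted p = 3.6e-07), -0.31 in shG9a (adjusted p = 0.00112) and -0.37 in shPALI1 (adjusted p = 0.00031). MCM2, whose promoter is printed above, had 30.0, 32.4 and 29.8 RPKM in shPALI1, 23.3, 24 and 22.7 in shG9a, 19.4, 18.7 and 19.9 in shJarid2, 16.8, 15.3 and 17.0 in shsuz12, against 40.7, 37.4 and 33.3 in pLKO. All knockdown libraries lay below all pLKO libraries, with shPALI1 closest. The log2 change of MCM2 was -0.26 ± 0.07 SE in shPALI1 (adjusted p = 0.0105), -0.64 ± 0.07 SE in shG9a (adjusted p = 9e-06), -0.90 in shJarid2 (adjusted p = 2.2e-07) and -1.13 in shsuz12 (adjusted p = 3e-08).

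The subunits of this hexamer did not keep the same order of change. MCM6 fell to 65.2% of pLKO in shPALI1 (-0.58, adjusted p = 8.4e-06) and stood at 88.6% in shG9a (-0.17, adjusted p = 0.0531), while MCM7 stood at 90.8% in shPALI1 (-0.13, adjusted p = 0.20) and fell to 65.7% in shG9a (-0.59, adjusted p = 5.3e-05). MCM3 fell, with log2 changes of -0.47 in shG9a, -0.47 in shJarid2 and -0.98 in shsuz12, and its change of -0.15 in shPALI1 (adjusted p = 0.14) did not pass. MCM5 fell, with log2 changes of -0.33 in shPALI1, -0.40 in shG9a, -0.53 in shJarid2 and -0.85 in shsuz12. The shPALI1 call of MCM2 was lost without pLKO replicate 1 (adjusted p = 0.0523) and with quantile normalization (adjusted p = 0.0607), and that of MCM5 without pLKO replicate 1 (adjusted p = 0.0507). MCM6 in shG9a passed with no filter (adjusted p = 0.0494) and in a fit of the 6 libraries alone (0.0487).

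Helicase activation genes split: CDC45 fell under every hairpin, while GINS3 rose in shPALI1 and shG9a. Of 6 genes, 3 fell and 1 rose in shPALI1, 3 fell and 2 rose in shG9a, and 5 fell in each of shJarid2 and shsuz12. CDC45, which completes the active helicase, had 8.77, 7.30 and 7.52 RPKM in shPALI1, 9.78, 9.68 and 8.58 in shG9a, 6.49, 5.64 and 7.98 in shJarid2, 4.04, 3.46 and 3.89 in shsuz12, against 14.3, 13.7 and 13.1 in pLKO. Every knockdown library was below every pLKO library, and the shsuz12 mean was 27.7% of pLKO (-1.62 ± 0.10 SE, adjusted p = 2.6e-08). The log2 change of CDC45 was -0.73 in shPALI1 (adjusted p = 6.2e-05), -0.51 in shG9a (adjusted p = 0.00118) and -0.94 in shJarid2 (adjusted p = 3.8e-06).

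GINS1, a subunit of the 4-subunit GINS complex, had 18.3, 16.8 and 15.4 RPKM in shPALI1, 18.0, 18.5 and 15.2 in shG9a, 6.80, 7.48 and 6.20 in shJarid2, 6.85, 7.40 and 6.87 in shsuz12, against 14.3, 15 and 13.8 in pLKO. Its libraries ranged from 15.2 to 18.5 RPKM in shPALI1 and shG9a and from 6.20 to 7.48 RPKM in shJarid2 and shsuz12, on either side of pLKO. GINS1 fell in shJarid2 (-0.98 ± 0.09 SE, adjusted p = 5.3e-07) and shsuz12 (-0.94 ± 0.09 SE, adjusted p = 8.1e-07). It rose in shG9a (0.24 ± 0.09 SE, adjusted p = 0.0367), and this call was lost without pLKO replicate 1, pLKO replicate 3, shG9a replicate 1 or shG9a replicate 2 (adjusted p 0.0777 to 0.14) and with no filter (adjusted p = 0.0682). Its change in shPALI1 (0.21, adjusted p = 0.067) did not pass, but passed with quantile normalization (adjusted p = 0.0057), with median ratio scaling (0.032) and when shPALI1 replicate 3 was left out (0.0409).

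GINS3, another GINS subunit, had 5.11, 5.96 and 4.81 RPKM in shPALI1, 5.31, 5.48 and 5.63 in shG9a, 3.57, 3.84 and 4.27 in shJarid2, 3.41, 3.31 and 3.02 in shsuz12, against 4.03, 3.81 and 3.73 in pLKO. Libraries of shPALI1 and shG9a all lay above pLKO, and GINS3 rose by 0.37 ± 0.08 SE in shPALI1 (adjusted p = 0.002) and 0.42 ± 0.08 SE in shG9a (adjusted p = 0.00083) on the log2 scale. It did not pass in shJarid2 (0.01, adjusted p = 0.94) or shsuz12 (-0.19, adjusted p = 0.0542), although it passed in shsuz12 with a pseudocount of 0.1 (adjusted p = 0.0463). GINS2 fell in shJarid2 (-0.54, adjusted p = 0.00048) and shsuz12 (-0.53, adjusted p = 0.00058) and stood at 91.2% and 97.6% of pLKO in shPALI1 and shG9a without a call. GINS4 fell, with log2 changes of -0.29 in shPALI1, -0.42 in shG9a, -1.05 in shJarid2 and -0.93 in shsuz12. MCM10, a factor that helps the helicase start, fell, with log2 changes of -0.32, -0.61, -0.75 and -1.24 in the same order. The shPALI1 call of GINS4 was lost without pLKO replicate 1 or shPALI1 replicate 2 (adjusted p 0.0702 to 0.0868), and that of MCM10 without pLKO replicate 1, pLKO replicate 2, pLKO replicate 3, shPALI1 replicate 2 or shPALI1 replicate 3 (adjusted p 0.0507 to 0.11) and with no filter, median ratio scaling, quantile normalization or TPM (adjusted p 0.0545 to 0.11).

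Polymerase genes were uneven, since POLD1 fell under every hairpin whereas POLE did not pass in shG9a or shsuz12. Of 5 genes, 2 fell in shPALI1, 3 in shG9a, 5 in shJarid2 and 4 in shsuz12. POLD1, the catalytic subunit of polymerase delta, had 13.6, 14.3 and 12.3 RPKM in shPALI1, 11.8, 12.2 and 11.5 in shG9a, 10.2, 10.8 and 12 in shJarid2, 6.19, 7.24 and 7.29 in shsuz12, against 21.1, 17.6 and 15.8 in pLKO. Its shsuz12 libraries did not reach 8 RPKM, and the log2 change was -1.27 ± 0.10 SE in shsuz12 (adjusted p = 1.4e-07), -0.67 in shJarid2 (adjusted p = 5.7e-05), -0.57 in shG9a (adjusted p = 0.00034) and -0.41 in shPALI1 (adjusted p = 0.00415). PRIM1, the catalytic subunit of primase, had 14.2, 13.0 and 13.8 RPKM in shPALI1, 16.7, 15.2 and 16.1 in shG9a, 11.2, 8.93 and 9.06 in shJarid2, 9.15, 8.09 and 7.84 in shsuz12, against 12.5, 15.4 and 13.7 in pLKO. The shPALI1 and shG9a libraries of PRIM1 overlapped pLKO, and those of shJarid2 and shsuz12 lay below it (-0.47 ± 0.09 SE, adjusted p = 0.00068 in shJarid2, -0.66 ± 0.09 SE, adjusted p = 3.6e-05 in shsuz12).

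POLE, the catalytic subunit of polymerase epsilon, averaged 7.65 ± 0.58 RPKM in shPALI1, 9.84 ± 0.22 in shG9a, 8.37 ± 0.75 in shJarid2, 9.29 ± 0.46 in shsuz12, against 10.1 ± 0.55 in pLKO. It fell in shPALI1 (-0.35 ± 0.07 SE, adjusted p = 0.00163) and shJarid2 (-0.24, adjusted p = 0.0141) and did not pass in shG9a (-0.03, adjusted p = 0.79) or shsuz12 (-0.10, adjusted p = 0.26). Its partner subunit POLE2 fell, with log2 changes of -0.36 in shG9a, -0.32 in shJarid2 and -0.70 in shsuz12. POLA1, the catalytic subunit of polymerase alpha, fell, with log2 changes of -0.37 in shG9a, -0.63 in shJarid2 and -0.28 in shsuz12 and stood at 103% of pLKO in shPALI1 without a call. The shsuz12 call of POLA1 (-0.28, adjusted p = 0.0234) was lost without pLKO replicate 1, pLKO replicate 2, shsuz12 replicate 2 or shsuz12 replicate 3 (adjusted p 0.0549 to 0.0934) and with median ratio scaling or TPM (adjusted p 0.0766 to 0.25), its shG9a call with TPM (adjusted p = 0.0688), and the shJarid2 calls without pLKO replicate 1 (adjusted p = 0.0534) and with median ratio scaling, TPM or a fit of the 6 libraries alone (adjusted p 0.0575 to 0.0905) for POLE and with quantile normalization (adjusted p = 0.0707) for POLE2. In shPALI1, POLE2 (-0.22, adjusted p = 0.0575) passed without shPALI1 replicate 3 (adjusted p = 0.0394). PRIM1 in shG9a (0.20, adjusted p = 0.0913) passed without pLKO replicate 2 (0.0398) and with quantile normalization (0.0325).

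The clamp and its loader fell as a whole in shsuz12, where all 5 genes passed by at least 1.5-fold, and in part in the other groups. In shPALI1, 2 fell and 1 rose, in shG9a 2 fell, and in shJarid2 4 fell. RFC3 had 12.3, 12.5 and 12.2 RPKM in shPALI1, 11.8, 12.8 and 11.1 in shG9a, 9.55, 8.26 and 8.80 in shJarid2, 6.67, 6.35 and 6.29 in shsuz12, against 12.8, 14.6 and 13.0 in pLKO. Its log2 change was -0.96 ± 0.07 SE in shsuz12 (adjusted p = 9.6e-08) and -0.55 ± 0.07 SE in shJarid2 (adjusted p = 1.7e-05), and it did not pass in shPALI1 (-0.12, adjusted p = 0.20) or shG9a (-0.16, adjusted p = 0.0763), although in shG9a it passed without shG9a replicate 2 (adjusted p = 0.0491). RFC4 had 22.1, 21.9 and 22.8 RPKM in shPALI1, 17.9, 18.4 and 17.0 in shG9a, 14.2, 15.1 and 16.2 in shJarid2, 11.2, 10.5 and 9.54 in shsuz12, against 19.0, 20.5 and 17.7 in pLKO. It was highest in shPALI1 and lowest in shsuz12, with no overlap between these and pLKO. RFC4 fell in shsuz12 (-0.81 ± 0.07 SE, adjusted p = 5.4e-07) and shJarid2 (-0.31, adjusted p = 0.00245) and rose in shPALI1 (0.22 ± 0.07 SE, adjusted p = 0.0279), and the rise was not called without pLKO replicate 1, pLKO replicate 3, shPALI1 replicate 1, shPALI1 replicate 2 or shPALI1 replicate 3 (adjusted p 0.0529 to 0.11).

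PCNA, the sliding clamp, averaged 73.4 ± 7.8 RPKM in shPALI1, 70.7 ± 4.7 in shG9a, 55.5 ± 6.3 in shJarid2, 48.1 ± 1.7 in shsuz12, against 80.2 ± 3.7 in pLKO. It fell in shJarid2 (-0.53, adjusted p = 0.00022) and shsuz12 (-0.72, adjusted p = 1.3e-05). RFC5 fell, with log2 changes of -0.26 in shPALI1, -0.49 in shG9a, -0.77 in shJarid2 and -0.78 in shsuz12, and its shPALI1 call was lost with TPM (adjusted p = 0.0504). RFC2 fell, with log2 changes of -0.43 in shPALI1, -0.40 in shG9a and -0.73 in shsuz12. The shG9a call of RFC2 was lost without pLKO replicate 1 or shG9a replicate 3 (adjusted p 0.0534 to 0.0642). In shJarid2 its libraries read 14.3, 12.5 and 19.2 RPKM, the third being replicate 3, and it passed without that library (log2 change -0.36, adjusted p = 0.00191).

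RPA1, LIG1 and UNG each had their lowest mean in a group other than shsuz12. Of the 5 genes for single-strand binding, Okazaki fragments and uracil repair, 3 fell in shPALI1, 5 in shG9a, 5 in shJarid2 and 4 in shsuz12. RPA1, the large subunit of the single-strand binding complex, had 34.0, 33.4 and 33.9 RPKM in shPALI1, 29.6, 31.1 and 29.5 in shG9a, 21.6, 21.8 and 22.1 in shJarid2, 29.7, 29.0 and 28.2 in shsuz12, against 41.0, 39.4 and 38.2 in pLKO. The shJarid2 libraries were the lowest of all, and the log2 change of RPA1 was -0.83 ± 0.05 SE in shJarid2 (adjusted p = 1.8e-08), -0.44 in shsuz12 (adjusted p = 7.2e-06), -0.38 in shG9a (adjusted p = 3.9e-05) and -0.22 in shPALI1 (adjusted p = 0.00314). UNG, which cuts uracil out of DNA and has a promoter with an E2F-type word at its start, had 24, 21.5 and 23.0 RPKM in shPALI1, 13.0, 13.5 and 13.9 in shG9a, 17.2, 17.8 and 17.7 in shJarid2, 21.1, 19.8 and 20.5 in shsuz12, against 22.5, 22.2 and 20.5 in pLKO. Its shG9a libraries lay below those of every other group, and it fell in shG9a (-0.65 ± 0.06 SE, adjusted p = 1.3e-06) and shJarid2 (-0.29 ± 0.06 SE, adjusted p = 0.00087). In shPALI1 (0.07, adjusted p = 0.37) and shsuz12 (-0.08, adjusted p = 0.26) UNG did not pass, although it rose in shPALI1 with quantile normalization (adjusted p = 0.0248).

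FEN1, the nuclease that trims Okazaki fragments, fell, with log2 changes of -0.27 in shPALI1, -0.32 in shG9a, -0.75 in shJarid2 and -1.12 in shsuz12. LIG1, the ligase that joins them, fell, with log2 changes of -0.32 in shG9a, -0.72 in shJarid2 and -0.33 in shsuz12. RPA2, the middle subunit of the single-strand binding complex, fell, with log2 changes of -0.30, -0.47, -0.22 and -0.51 in shPALI1, shG9a, shJarid2 and shsuz12. The FEN1 call was lost without pLKO replicate 1, pLKO replicate 2, shPALI1 replicate 2 or shPALI1 replicate 3 (adjusted p 0.0681 to 0.13) and with no filter, median ratio scaling or quantile normalization (adjusted p 0.0531 to 0.0848) in shPALI1 and without pLKO replicate 1 or shG9a replicate 1 (adjusted p 0.0587 to 0.0657) in shG9a. The LIG1 call was lost without pLKO replicate 1, pLKO replicate 2, shG9a replicate 2 or shG9a replicate 3 (adjusted p 0.0512 to 0.12) and with no filter, quantile normalization or TPM (adjusted p 0.0515 to 0.091) in shG9a and without pLKO replicate 1 or shsuz12 replicate 2 (adjusted p 0.0923 to 0.0943) and with median ratio scaling, quantile normalization or TPM (adjusted p 0.0565 to 0.0845) in shsuz12. The shJarid2 call of RPA2 was lost without pLKO replicate 2, shJarid2 replicate 1 or shJarid2 replicate 2 (adjusted p 0.12 to 0.15) and with no filter, median ratio scaling or a fit of the 6 libraries alone (adjusted p 0.0634 to 0.16), and the shPALI1 call of RPA1 with quantile normalization (adjusted p = 0.12).

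The nucleotide supply genes included some of the deepest falls, of TYMS in shG9a and of both TYMS and RRM2 in shsuz12. All 4 fell in shPALI1, shJarid2 and shsuz12, and 3 fell in shG9a. TYMS, which makes thymidylate, had 15.7, 16.4 and 14.7 RPKM in shPALI1, 9.14, 9.02 and 7.58 in shG9a, 11.5, 10.5 and 12.3 in shJarid2, 7.60, 7.47 and 7.29 in shsuz12, against 27.3, 24.1 and 23.3 in pLKO. Its level in shG9a came close to that in shsuz12, and the fall in shG9a (-1.44 ± 0.08 SE, adjusted p = 1.7e-08) was the deepest of the 42 genes there. TYMS also fell in shPALI1 (-0.64, adjusted p = 3.3e-05), shJarid2 (-1.06, adjusted p = 1.6e-07) and shsuz12 (-1.61, adjusted p = 5.6e-09). RRM2, the small subunit of ribonucleotide reductase, had 24.8, 22.0 and 24.5 RPKM in shPALI1, 26.5, 27.0 and 23.1 in shG9a, 22.9, 20.2 and 20.2 in shJarid2, 9.49, 8.57 and 8.54 in shsuz12, against 29.3, 29.7 and 25.2 in pLKO. Here shsuz12 stood alone, with every library under 10 RPKM and those of the other groups above 20. RRM2 fell to 31.6% of pLKO in shsuz12 (-1.56 ± 0.09 SE, adjusted p = 7.2e-09), fell less in shJarid2 (-0.40, adjusted p = 0.00142) and did not pass in shG9a (-0.13, adjusted p = 0.23).

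RRM1, the large subunit of the same enzyme, averaged 36 ± 0.42 RPKM in shPALI1, 36.3 ± 2.6 in shG9a, 27.6 ± 1.2 in shJarid2, 27.5 ± 1.7 in shsuz12, against 46.4 ± 3.1 in pLKO. It fell in all 4 knockdowns, with log2 changes of -0.35 in shPALI1, -0.35 in shG9a, -0.73 in shJarid2 and -0.73 in shsuz12. TK1, which salvages thymidine, fell, with log2 changes of -0.72, -0.58, -0.33 and -1.33 in the same order. The shPALI1 call of RRM2 (-0.23, adjusted p = 0.0425) was lost without pLKO replicate 1, pLKO replicate 2, shPALI1 replicate 1, shPALI1 replicate 2 or shPALI1 replicate 3 (adjusted p 0.0531 to 0.16) and with no filter, median ratio scaling, quantile normalization, TPM or a fit of the 6 libraries alone (adjusted p 0.0565 to 0.19). The shJarid2 call of TK1 was lost without pLKO replicate 1, shJarid2 replicate 1 or shJarid2 replicate 2 (adjusted p 0.088 to 0.15) and with no filter, median ratio scaling or a fit of the 6 libraries alone (adjusted p 0.0563 to 0.15).

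Among the regulators of the G1 to S transition, E2F1 and E2F2 fell in shPALI1 and shsuz12, whereas in shG9a E2F1 did not pass and E2F2 rose. All 4 genes fell in shPALI1 and in shsuz12, 3 fell in shJarid2, and 2 fell and 1 rose in shG9a. E2F2 had 1.17, 1.39 and 1.61 RPKM in shPALI1, 4.13, 4.05 and 3.68 in shG9a, 1.83, 1.89 and 2.09 in shJarid2, 1.33, 1.30 and 1.25 in shsuz12, against 3.47, 2.71 and 3.19 in pLKO. The shG9a libraries were the highest of all and those of shPALI1 and shsuz12 the lowest, and E2F2 fell in shPALI1 (-0.79 ± 0.09 SE, adjusted p = 1.1e-05), shJarid2 (-0.49, adjusted p = 0.00046) and shsuz12 (-0.84 ± 0.09 SE, adjusted p = 3.4e-06). Its rise in shG9a (0.27 ± 0.09 SE, adjusted p = 0.0283) was lost without pLKO replicate 2, shG9a replicate 1 or shG9a replicate 2 (adjusted p 0.0803 to 0.13) and with a pseudocount of 0.1 (adjusted p = 0.0506). E2F1 had 9.96, 7.08 and 8.26 RPKM in shPALI1, 14.5, 15.8 and 12.8 in shG9a, 13.8, 12.5 and 16.3 in shJarid2, 6.64, 7.37 and 7.26 in shsuz12, against 17.7, 15 and 13.1 in pLKO. Libraries of shG9a and shJarid2 overlapped pLKO, and those of shPALI1 and shsuz12 lay below it. The log2 change of E2F1 was -0.78 ± 0.13 SE in shPALI1 (adjusted p = 0.00024) and -1.0 ± 0.13 SE in shsuz12 (adjusted p = 1.8e-05), against -0.07 in shG9a (adjusted p = 0.67) and -0.09 in shJarid2 (adjusted p = 0.56).

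CCNE1 and CCNE2 code for the cyclins that activate CDK2 at the start of S phase. CCNE2 fell, with log2 changes of -0.86 in shPALI1, -0.38 in shG9a, -0.56 in shJarid2 and -0.72 in shsuz12, and CCNE1 fell, with log2 changes of -0.41, -0.44, -0.26 and -0.58 in the same order. The shG9a call of CCNE2 was lost without pLKO replicate 1, pLKO replicate 2, shG9a replicate 1, shG9a replicate 2 or shG9a replicate 3 (adjusted p 0.0707 to 0.17) and with a pseudocount of 0.1, no filter, median ratio scaling or TPM (adjusted p 0.0507 to 0.22). The shJarid2 call of CCNE1 was lost without shJarid2 replicate 2 (adjusted p = 0.0612) and with a fit of the 6 libraries alone (adjusted p = 0.0814).

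Chromatin assembly factor 1, which places histones on new DNA, is represented by its large subunit CHAF1A and middle subunit CHAF1B. CHAF1A had 11.7, 14 and 12.7 RPKM in shPALI1, 17.0, 15.2 and 14.9 in shG9a, 10.4, 9.68 and 10.7 in shJarid2, 9.36, 10.3 and 10.6 in shsuz12, against 22.8, 18.3 and 17.7 in pLKO. All knockdown libraries lay below pLKO, and CHAF1A fell in shPALI1 (-0.57 ± 0.10 SE, adjusted p = 0.00028), shG9a (-0.30, adjusted p = 0.0207), shJarid2 (-0.87 ± 0.10 SE, adjusted p = 4.1e-06) and shsuz12 (-0.89 ± 0.10 SE, adjusted p = 3.2e-06). CHAF1B had 9.23, 7.56 and 8.50 RPKM in shPALI1, 11.1, 11.1 and 9.61 in shG9a, 11.5, 10.4 and 13.0 in shJarid2, 8.36, 8.92 and 6.78 in shsuz12, against 12.9, 12.6 and 12 in pLKO. It fell in shPALI1 (-0.52 ± 0.10 SE, adjusted p = 0.001) and shsuz12 (-0.59 ± 0.10 SE, adjusted p = 0.00025), and in shJarid2, where CHAF1A was near its lowest, CHAF1B did not pass (-0.10, adjusted p = 0.44). The shG9a call of CHAF1A was lost without pLKO replicate 1, shG9a replicate 2 or shG9a replicate 3 (adjusted p 0.0666 to 0.10) and with TPM (adjusted p = 0.13). CHAF1B in shG9a (-0.22, adjusted p = 0.0973) passed in a fit of the 6 libraries alone (adjusted p = 0.0376).

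**Figure D3:**
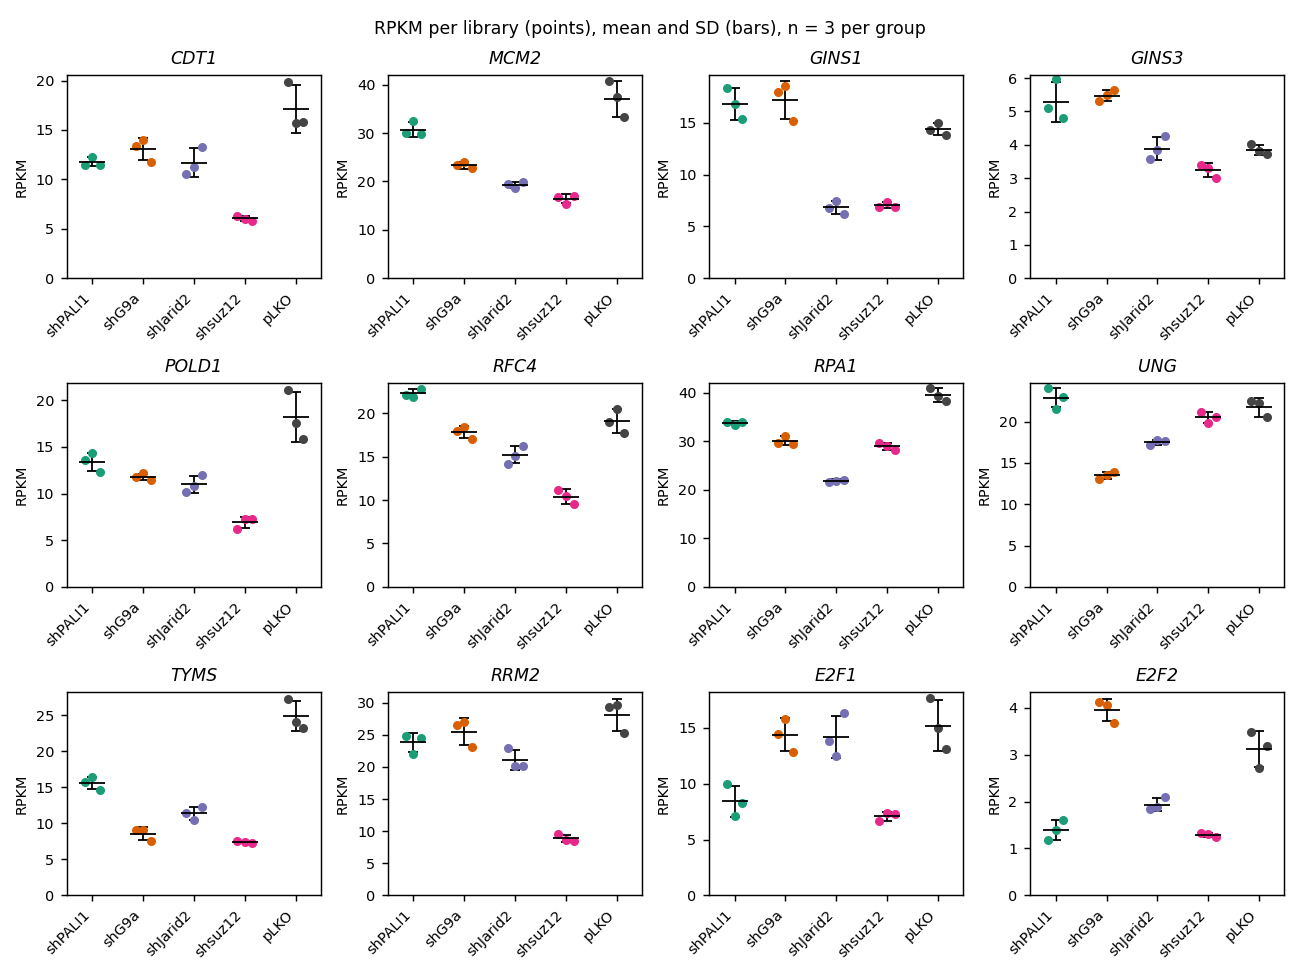
RPKM of 12 genes in each library (points), with group mean and SD (bars, n = 3), for shPALI1, shG9a, shJarid2, shsuz12 and pLKO; every y axis starts at 0. RRM2 lies under 10 RPKM in shsuz12 and above 20 in the other groups, TYMS lies below pLKO in every knockdown and lowest in shG9a and shsuz12, UNG is lowest in shG9a and RPA1 in shJarid2.

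Contrasts between knockdowns test the differences themselves, and the pLKO libraries enter them only through the shared estimate of spread. shPALI1 and shG9a differed in 18 of 42 genes, a share no higher than the 48.2% of all genes that differed: 10 were higher in shPALI1 and 8 lower, beside 24.1% of all genes in each direction. Higher in shPALI1 were MCM2, MCM3, MCM7, MCM10, POLA1, RFC4, RFC5, RPA1, UNG and TYMS, with the widest gaps in TYMS (0.80 ± 0.08 SE, adjusted p = 2.5e-06) and UNG (0.72 ± 0.06 SE, adjusted p = 2.5e-07). Lower in shPALI1 were GMNN, MCM6, POLE, E2F1, E2F2, CCNE2, CHAF1A and CHAF1B, with the widest gaps in E2F2 (-1.06 ± 0.09 SE, adjusted p = 3.8e-07), E2F1 (-0.71 ± 0.13 SE, adjusted p = 0.00038) and GMNN (-0.63 ± 0.11 SE, adjusted p = 0.00028). The median difference of the 42 genes was 0.04. Without shPALI1 replicate 3, 5 genes were lower in shPALI1. With TPM, 7 were higher and 11 lower, and all genes split into 2323 higher and 3722 lower, against 3066 and 3061 with RPKM. Calls were lost for MCM10 without shPALI1 replicate 1, shPALI1 replicate 2, shPALI1 replicate 3, shG9a replicate 2 or shG9a replicate 3 (adjusted p 0.0548 to 0.16) and with a pseudocount of 0.1, no filter or TPM (adjusted p 0.0504 to 0.22), RFC5 without shG9a replicate 2 (adjusted p = 0.0567) and with TPM (adjusted p = 0.20) and RPA1 without shPALI1 replicate 1, shG9a replicate 1 or shG9a replicate 3 (adjusted p 0.0506 to 0.0649) and with TPM (adjusted p = 0.36). They were also lost for CCNE2 without shPALI1 replicate 3 (adjusted p = 0.0523), CHAF1A without shPALI1 replicate 1, shPALI1 replicate 3 or shG9a replicate 1 (adjusted p 0.0652 to 0.12) and with no filter (adjusted p = 0.0596) and CHAF1B without shPALI1 replicate 2, shPALI1 replicate 3, shG9a replicate 1 or shG9a replicate 2 (adjusted p 0.0512 to 0.11) and with no filter (adjusted p = 0.057).

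Both of these knockdowns stood above shsuz12 in most genes. In shPALI1, 34 genes were higher than in shsuz12 and 1 lower, beside 30.9% and 25.0% of all genes, with a median difference of 0.58. The lower gene was POLE (-0.25, adjusted p = 0.0101), and its call was lost, leaving 0, without shPALI1 replicate 1 (adjusted p = 0.0536). Of the higher genes, RFC2 lost its call whichever of the 6 libraries was left out (adjusted p 0.0734 to 0.0979). Calls were also lost in some runs for MCM6, POLA1, RPA1, RPA2, UNG and CHAF1A. The widest gaps were in RRM2 (1.33 ± 0.09 SE, adjusted p = 1.7e-08), GINS1 (1.14 ± 0.09 SE, adjusted p = 8.7e-08) and RFC4 (1.03 ± 0.07 SE, adjusted p = 4.2e-08). In shG9a, 33 genes were higher than in shsuz12 and 1 lower, beside 25.8% and 19.8% of all genes, with a median difference of 0.57. Here the lower gene was UNG (-0.57 ± 0.06 SE, adjusted p = 3.5e-06), and the widest gaps were in RRM2 (1.43 ± 0.09 SE, adjusted p = 1.7e-08), GINS1 (1.18 ± 0.09 SE, adjusted p = 1.1e-07), CDC45 (1.11 ± 0.10 SE, adjusted p = 1.1e-06) and E2F2 (1.11 ± 0.09 SE, adjusted p = 3.1e-07). Of the genes higher in shG9a, RFC2 and CHAF1B lost their calls in some runs. With TPM all genes split into 3024 higher and 3811 lower in shPALI1 than in shsuz12, and 27 of the 42 genes were higher and 1 lower.

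Against shJarid2, 26 genes were higher and 5 lower in shPALI1, beside 30.5% and 31.8% of all genes, with a median difference of 0.36. GINS1 (1.19 ± 0.09 SE, adjusted p = 3.9e-08), MCM7 (0.79 ± 0.08 SE, adjusted p = 1.3e-06) and GINS4 (0.76 ± 0.09 SE, adjusted p = 5e-06) were among those higher. GMNN (-0.64 ± 0.11 SE, adjusted p = 0.00016), TK1 (-0.39, adjusted p = 0.0104), E2F1 (-0.69 ± 0.13 SE, adjusted p = 0.00032), E2F2 (-0.30, adjusted p = 0.0107) and CHAF1B (-0.42, adjusted p = 0.00244) were lower in shPALI1. The E2F2 call was lost without shPALI1 replicate 1 (adjusted p = 0.054), and the TK1 call with quantile normalization (adjusted p = 0.11). Of the genes higher in shPALI1, POLD1 and CHAF1A lost their calls in some runs. In shG9a, 26 genes were higher than in shJarid2 and 3 lower, beside 27.2% and 28.6% of all genes, with a median difference of 0.27. GINS1 (1.22 ± 0.09 SE, adjusted p = 5.3e-08) and E2F2 (0.76 ± 0.09 SE, adjusted p = 8.8e-06) were higher, and TYMS (-0.38, adjusted p = 0.00146), UNG (-0.35, adjusted p = 0.00017) and RPA2 (-0.25, adjusted p = 0.0198) lower in shG9a. The RPA2 call was lost without shG9a replicate 1 or shJarid2 replicate 3 (adjusted p 0.0526 to 0.0698) and with quantile normalization, TPM or a fit of the 6 libraries alone (adjusted p 0.0824 to 0.16). Of the genes higher in shG9a, POLA1, POLE, RFC4 and RRM2 lost their calls in some runs. With TPM all genes split into 4497 higher and 2718 lower in shG9a than in shJarid2, their median moved by 0.14, and 29 of the 42 were higher and 2 lower. Without shJarid2 replicate 2, 24 were higher and 6 lower in shG9a than in shJarid2, and with median ratio scaling 5 were lower. Without shJarid2 replicate 3, 35 genes differed between shPALI1 and shJarid2 and 28 between shG9a and shJarid2. With all libraries these contrasts called 62.3% and 55.8% of all genes.

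The PRC2 subunit knockdowns also differed. In shsuz12, 25 genes were lower than in shJarid2 and 4 higher, beside 33.8% and 25.2% of all genes, with a median difference of -0.30. RRM2 (-1.16 ± 0.09 SE, adjusted p = 5.5e-08), TK1 (-1.0 ± 0.12 SE, adjusted p = 6.2e-06), E2F1 (-0.90 ± 0.13 SE, adjusted p = 3.6e-05), CDT1 (-0.84 ± 0.10 SE, adjusted p = 6.1e-06) and GMNN (-0.77 ± 0.11 SE, adjusted p = 3.4e-05) were furthest below shJarid2. The 4 genes higher in shsuz12 were POLA1 (0.35, adjusted p = 0.00552), RPA1 (0.39 ± 0.05 SE, adjusted p = 1.6e-05), LIG1 (0.39, adjusted p = 0.00682) and UNG (0.21, adjusted p = 0.00704). Of all genes, 59.0% differed in this contrast. Of the lower genes, MCM2, MCM6, GINS3, RPA2 and CCNE1 lost their calls in some runs. Without shJarid2 replicate 3, 29 of the 42 genes differed. With quantile normalization 22 were lower and 7 higher, and with TPM 20 were lower and 6 higher. TPM moved the median of all genes by 0.14 and their split to 4191 higher and 3130 lower.

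**Figure D4:**
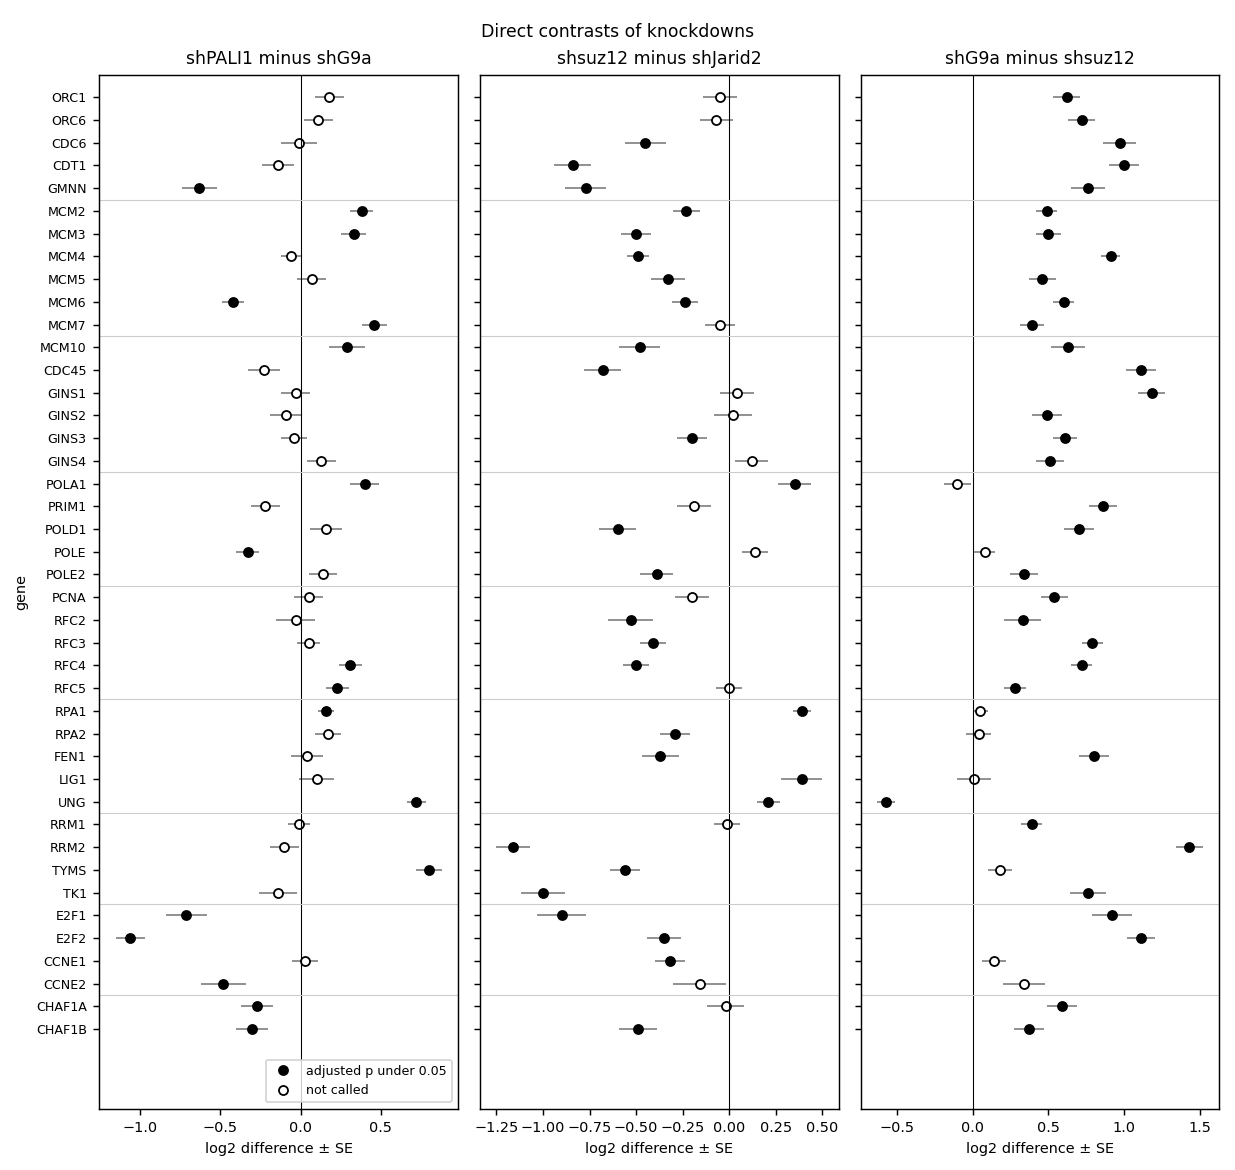
Log2 difference of log2(RPKM + 1) between knockdowns with its SE (x axis) for the 42 genes (y axis), in 3 contrasts; filled points have an adjusted p under 0.05. Points fall on both sides of 0 in shPALI1 minus shG9a, mostly left of 0 in shsuz12 minus shJarid2, and mostly right of 0 in shG9a minus shsuz12, with UNG on the left.

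Other genes of the same pathways are given by lists that hold none of the 42. The shares of all genes that fell and rose were 25.1% and 16.5% in shPALI1, 24.7% and 18.4% in shG9a, 27.2% and 23.8% in shJarid2, and 32.8% and 21.1% in shsuz12, and each list is to be read against these. Of 37 other origin and fork genes, 16 fell and 3 rose in shPALI1, 20 fell and 1 rose in shG9a, 26 fell and 1 rose in shJarid2, and 31 fell and 1 rose in shsuz12. The shares that fell were 43.2%, 54.1%, 70.3% and 83.8%. Their median log2 changes were -0.21, -0.28, -0.44 and -0.55. TIMELESS, a fork protection factor, averaged 13.7 ± 0.65 RPKM in shPALI1, 17.8 ± 1.1 in shG9a, 15.5 ± 0.5 in shJarid2, 14.2 ± 0.24 in shsuz12, against 25.8 ± 0.39 in pLKO, with its lowest mean in shPALI1 (-0.87 ± 0.06 SE, adjusted p = 6.5e-08), close to that in shsuz12 (-0.82 ± 0.06 SE, adjusted p = 8.1e-08). CLSPN, its partner in checkpoint signalling, averaged 3.87 ± 0.037 RPKM in shPALI1, 3.65 ± 0.35 in shG9a, 2.65 ± 0.36 in shJarid2, 1.71 ± 0.041 in shsuz12, against 4.9 ± 0.018 in pLKO, with its deepest fall in shsuz12 (-1.13 ± 0.08 SE, adjusted p = 6.2e-08).

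Of 20 other nucleotide supply genes, 2 fell and 5 rose in shPALI1, 11 fell and 2 rose in shG9a, 14 fell and 1 rose in shJarid2, and 19 fell and 1 rose in shsuz12. Thus 10.0% of the list fell and 25.0% rose in shPALI1, while 55%, 70.0% and 95% fell in shG9a, shJarid2 and shsuz12. RRM2B, the p53-inducible small subunit of ribonucleotide reductase, averaged 29.4 ± 0.52 RPKM in shPALI1, 8.17 ± 0.46 in shG9a, 9.89 ± 2.1 in shJarid2, 9.95 ± 1.2 in shsuz12, against 20.6 ± 1.3 in pLKO. It rose in shPALI1 (0.49 ± 0.12 SE, adjusted p = 0.00465) and fell in shG9a (-1.24 ± 0.12 SE, adjusted p = 2.2e-06), shJarid2 (-1.01, adjusted p = 8.7e-06) and shsuz12 (-0.99, adjusted p = 1e-05). MTHFD2, a mitochondrial enzyme of one-carbon metabolism, averaged 69.5 ± 3.3 RPKM in shPALI1, 51.3 ± 1.5 in shG9a, 24.1 ± 1.9 in shJarid2, 28 ± 1.9 in shsuz12, against 57.5 ± 4.2 in pLKO. It rose in shPALI1 (0.27, adjusted p = 0.0112) and fell in shJarid2 (-1.22 ± 0.08 SE, adjusted p = 2e-08) and shsuz12 (-1.01 ± 0.08 SE, adjusted p = 1.1e-07).

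Of 31 other genes of the E2F, RB and G1 cyclin axis, 28 passed the filter on low values. Among these, 13 fell and 4 rose in shPALI1, 12 fell and 2 rose in shG9a, 12 fell and 4 rose in shJarid2, and 19 fell and 1 rose in shsuz12. The shares that fell were 46.4%, 42.9%, 42.9% and 67.9%. The list mixes genes that drive S phase entry with brakes on it, so these shares give no direction for the axis. Of the brakes, CDKN1A fell in shPALI1 (-0.57, adjusted p = 0.00031) and shG9a (-0.89, adjusted p = 5.9e-06). CDKN1B rose in shJarid2 (0.22, adjusted p = 0.0291) and fell in shsuz12 (-0.30, adjusted p = 0.00445). RB1 did not pass in any knockdown. CCND1, cyclin D1, which starts the release of E2F from RB, averaged 37.4 ± 2 RPKM in shPALI1, 77.1 ± 4.1 in shG9a, 74.2 ± 6.1 in shJarid2, 83.5 ± 3.1 in shsuz12, against 101 ± 6.5 in pLKO, and its fall in shPALI1 (-1.41 ± 0.08 SE, adjusted p = 7e-09) went well beyond that in shG9a (shPALI1 minus shG9a -1.03 ± 0.08 SE, adjusted p = 7.9e-08). CCNA2, the S phase cyclin A, averaged 13.6 ± 0.18 RPKM in shPALI1, 12.9 ± 1.7 in shG9a, 4.5 ± 0.49 in shJarid2, 6.76 ± 0.85 in shsuz12, against 19.3 ± 1.1 in pLKO, with its deepest fall in shJarid2 (-1.89 ± 0.10 SE, adjusted p = 5e-09). Its level in shsuz12 was above that in shJarid2 (0.49, adjusted p = 0.00068), unlike most replication genes.

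Of 13 genes for S phase chromatin and the upkeep of DNA methylation, 5 fell and 2 rose in shPALI1, 9 fell in shG9a, 9 fell and 1 rose in shJarid2, and 13 fell in shsuz12. In shPALI1 that is 38.5% that fell and 15.4% that rose, and 69.2% fell in each of shG9a and shJarid2. RBBP4, a histone chaperone shared by chromatin assembly factor 1 and PRC2, averaged 22.2 ± 0.54 RPKM in shPALI1, 12.2 ± 0.16 in shG9a, 7.57 ± 0.69 in shJarid2, 14.2 ± 0.84 in shsuz12, against 16.1 ± 0.93 in pLKO. It rose in shPALI1 (0.44 ± 0.07 SE, adjusted p = 0.00017) and fell most in shJarid2 (-1.0 ± 0.07 SE, adjusted p = 5.3e-08). USP1, which removes ubiquitin from PCNA, fell most in shJarid2 too (-0.96 ± 0.06 SE, adjusted p = 2.3e-08). Of 18 S phase repair genes, 6 fell and 2 rose in shPALI1, 6 fell and 1 rose in shG9a, 17 fell in shJarid2, and 15 fell in shsuz12. The 33.3% of this list that fell in each of shPALI1 and shG9a lie near the share of all genes, beside 94.4% in shJarid2 and 83.3% in shsuz12. CHEK1, the checkpoint kinase, averaged 7.88 ± 0.33 RPKM in shPALI1, 7.54 ± 0.26 in shG9a, 5.01 ± 0.36 in shJarid2, 4.93 ± 0.1 in shsuz12, against 8.05 ± 0.31 in pLKO, with falls in shJarid2 (-0.59, adjusted p = 3e-06) and shsuz12 (-0.61, adjusted p = 2.2e-06) and no call in shPALI1 (-0.03, adjusted p = 0.75) or shG9a (-0.08, adjusted p = 0.30).

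Mitotic genes, which act after S phase, fell beside the replication genes, and their part in the result was not tested. Of 28, 16 fell in shPALI1, 25 in shG9a, 27 in shJarid2 and 28 in shsuz12, and none rose. In shPALI1 that is 57.1% of them, and in shG9a 89.3%. Their median log2 changes were -0.34, -0.57, -0.96 and -1.25, against -0.29, -0.36, -0.55 and -0.85 for the replication genes. CCNB1, cyclin B1, averaged 54.4 ± 0.79 RPKM in shPALI1, 46 ± 2.1 in shG9a, 29.8 ± 1.4 in shJarid2, 25.9 ± 1.2 in shsuz12, against 65.7 ± 3.9 in pLKO. TOP2A, the topoisomerase that untangles replicated chromosomes, averaged 31.7 ± 1.1 RPKM in shPALI1, 18.3 ± 0.54 in shG9a, 12.9 ± 1.2 in shJarid2, 11 ± 0.74 in shsuz12, against 29.7 ± 2.3 in pLKO, and it did not pass in shPALI1 (0.09, adjusted p = 0.35).

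Library by library, the median of the 42 genes, as a difference from the pLKO mean, was -0.27, -0.33 and -0.32 in shPALI1, -0.32, -0.33 and -0.40 in shG9a, -0.61, -0.60 and -0.55 in shJarid2 and -0.85, -0.82 and -0.89 in shsuz12, against 0.05, 0.01 and -0.09 in pLKO. No library of shJarid2 or shsuz12 overlapped those of shPALI1 and shG9a. For the mitotic genes it was -0.33, -0.36 and -0.29 in shPALI1, -0.49, -0.48 and -0.61 in shG9a, -0.90, -0.91 and -1.01 in shJarid2 and -1.16, -1.25 and -1.34 in shsuz12, against -0.02, 0.09 and -0.07 in pLKO. Replicate 3 of shJarid2, which stood apart across all genes, had the highest replication median and the lowest mitotic median of its group.

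**Figure D5:**
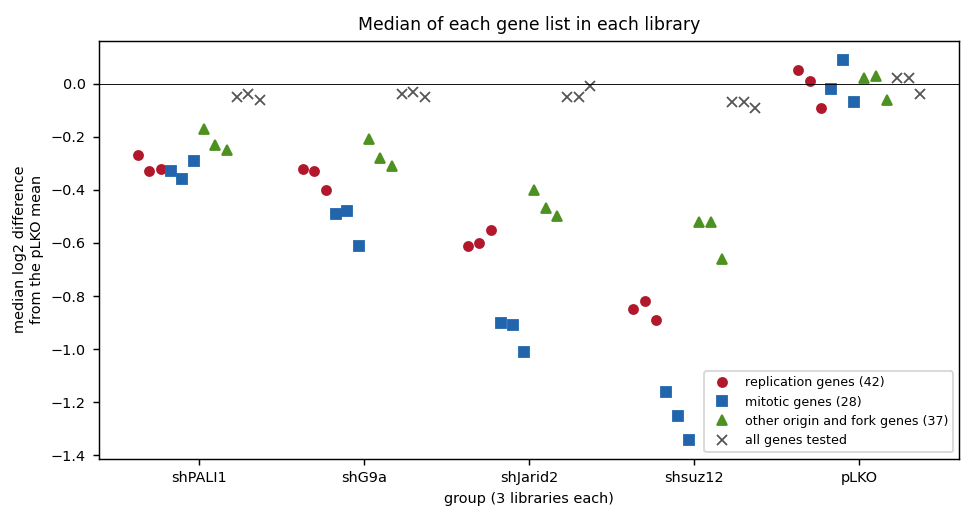
Median difference from the pLKO mean of log2(RPKM + 1) in each library (points; 3 per group) for 4 sets of genes. The replication genes (red circles) lie near -0.3 in shPALI1 and shG9a and at -0.82 to -0.89 in shsuz12, with mitotic genes (blue squares) lower still in shG9a, shJarid2 and shsuz12 and all genes tested (grey crosses) near 0.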

How the data were processed

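RNA of LNCaP cells had been sequenced in 15 libraries, 3 per group. The authors deposited 1 table of RPKM values, and STAR and the build hg38 are named per the submitters' processing notes. No version of STAR, no counting tool, no strand setting and no annotation source is stated in the labels. Depth was 10.56 to 19.36 M reads, worked out from RPKM steps of 1 read (92.7% to 94.8% of values under 50 reads in short RNA genes lay within 0.05 of a whole number). Of 26475 names, 32 carried no values, 28 had been turned into dates and 2 stood on 2 lines.

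Tests were made with limma 3.58.1 (R 4.3.3) on log2(RPKM + 1), with a pseudocount of 1, on the 12715 genes that reached 1 RPKM in 3 or more libraries. The model had group as its only term, with a mean-variance trend, two-sided tests and Benjamini-Hochberg adjustment over all genes within each of 10 contrasts. In data simulated for the shPALI1 comparison from 12116 genes, it recovered 73 of 100 genes changed 1.5-fold and 89 of 100 changed 2-fold, with 5 false calls. Only these genes were changed there, while 25.1% of all genes fell and 16.5% rose in the real comparison. The simulated noise was normal, independent between genes and libraries, and had the spread of the fit itself. Such data follow the model, so a low number of false calls was built in. Rates of recovery and of false calls may thus differ in the real fit. Values in all libraries are given for the 2 genes of each role group with the smallest p of the F test over the 5 groups, and for GINS3, which went against its role group. In each pathway list the 2 genes with the smallest such p are named, except that 1 gene of the S phase repair list is not reported here. The genes and lists were chosen with earlier results of these data known. Promoter windows come from RefSeq on GRCh38.p14 (hg38 is another name of GRCh38), whose gene starts may differ from those of the annotation used for the RPKM. Tables and figures were made with Python 3.11.15, pandas 2.3.3 and matplotlib 3.10.9. The fit was repeated without the filter, with genes of mean RPKM 3 or more, with pseudocounts of 0.1 and 0.5, with TPM, quantile normalization or median ratio scaling, with a fit of the 6 libraries of a contrast, with the replicate number as a term, and with each library left out. TPM here is RPKM rescaled so that each column sums to the same total.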

Additional observations from a re-analysis of the deposited data

How the results depend on the processing

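The counts of the 42 genes that changed stayed within 1.5 times the main count under every alternative run. Against pLKO, leaving out 1 library gave 22 to 28 genes in shPALI1 (30 in the reported fit), 24 to 31 in shG9a (31), 34 to 39 in shJarid2 (38) and 37 to 39 in shsuz12 (39), and other settings gave 26 to 31, 24 to 33, 33 to 38 and 37 to 40. The run on genes of mean RPKM 3 or more did not test E2F2 and POLE2, so its counts are not out of all 42. Between knockdowns, leaving out 1 library gave 14 to 17 for shPALI1 against shG9a (18), 29 to 35 against shJarid2 (31) and 31 to 32 against shsuz12 (35), 24 to 30 for shG9a against shJarid2 (29) and 32 to 35 against shsuz12 (34), and 27 to 30 for shsuz12 against shJarid2 (29). In the same order, other settings gave 15 to 22, 30 to 33, 28 to 35, 24 to 31, 32 to 35 and 26 to 29.

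Of single-gene values in the pLKO comparisons, over all alternatives, 2330 kept direction and call, 129 lost the call, 17 gained one and 36 changed sign. Between knockdowns only genes with a call in the reported fit were followed. Of their values, 2508 kept both and 124 lost the call, and gained calls were not counted. Each value that changed sign belonged to a gene without a call. With median ratio scaling, quantile normalization and TPM, the log2 change was 0.02, 0.03 and 0.009 for ORC1 and 0.02, 0.07 and 0.008 for PRIM1 in shPALI1, 0.001, 0.02 and 0.08 for GINS2 and 0.006, 0.01 and 0.08 for POLE in shG9a, and 0.001, 0.04 and 0.05 for UNG in shsuz12. POLE in shsuz12 was 0.004 with quantile normalization and 0.02 with TPM. With TPM alone, RFC4 was 0.02 and E2F1 0.04 in shG9a, and GINS3 was -0.02 in shJarid2. Leaving out 1 library gave -0.10 to 0.05 for ORC1, -0.08 to 0.06 for PRIM1 and -0.01 to 0.08 for POLA1 in shPALI1, -0.12 to 0.03 for GINS2, -0.07 to 0.005 for POLE and -0.17 to 0.03 for E2F1 in shG9a, and -0.05 to 0.06 for GINS3 and -0.19 to 0.01 for E2F1 in shJarid2. The cause of these changes was not tested.

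No clear pairing of libraries by replicate number was seen, although 3 libraries per group are too few to exclude one. Deviations from the group means correlated above 0.1 in 7 of 30 pairs of equal number, over a range of -0.271 to 0.301, and 5 of 15 libraries correlated best with their own number. With the replicate number as a block, 31 genes changed in shPALI1, 33 in shG9a, 38 in shJarid2 and 39 in shsuz12 against pLKO, and 19, 32 and 32 in shPALI1 against shG9a, shJarid2 and shsuz12. The block gave 29 and 35 in shG9a against shJarid2 and shsuz12, and 28 in shsuz12 against shJarid2.

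Each group has 3 libraries of 1 hairpin, harvested 4 to 5 days after infection, so the data hold no second hairpin. RPKM carries no measure of RNA per cell, and cell cycle phases were not analysed here. E2F2, with 1.17 to 4.13 RPKM, had the lowest mean of the 42 genes and so the fewest reads per length.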

Other observations

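Ratios of RPKM within a library, chosen after the values were seen and not tested, show where pairs of genes, some of them partners of 1 complex or step, went apart. CDT1 over GMNN, the loading factor over its inhibitor, was 0.739 ± 0.11 in shPALI1, 0.52 ± 0.068 in shG9a, 0.458 ± 0.022 in shJarid2, 0.417 ± 0.021 in shsuz12 and 0.533 ± 0.047 in pLKO (SD, n = 3 each). It was highest in shPALI1, where no library overlapped pLKO. RRM2 over RRM1, the subunits of ribonucleotide reductase, was 0.66 ± 0.049 in shPALI1, 0.704 ± 0.011 in shG9a, 0.765 ± 0.055 in shJarid2, 0.323 ± 0.0087 in shsuz12 and 0.605 ± 0.031 in pLKO, and the shsuz12 libraries lay below all others.

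GINS1 over CDC45, which sit in the same helicase, was 2.14 ± 0.14 in shPALI1, 1.84 ± 0.072 in shG9a, 1.05 ± 0.27 in shJarid2, 1.87 ± 0.24 in shsuz12 and 1.05 ± 0.046 in pLKO. The ratio was above pLKO in every library of shPALI1, shG9a and shsuz12, and shJarid2 libraries lay on both sides of pLKO. CHAF1A over CHAF1B was 1.54 ± 0.29 in shPALI1, 1.48 ± 0.1 in shG9a, 0.883 ± 0.053 in shJarid2, 1.28 ± 0.25 in shsuz12 and 1.57 ± 0.18 in pLKO, lowest in every shJarid2 library. E2F2 over E2F1 was 0.169 ± 0.045 in shPALI1, 0.276 ± 0.018 in shG9a, 0.137 ± 0.012 in shJarid2, 0.183 ± 0.016 in shsuz12 and 0.207 ± 0.033 in pLKO, and UNG over PCNA was 0.312 ± 0.018 in shPALI1, 0.192 ± 0.019 in shG9a, 0.318 ± 0.032 in shJarid2, 0.426 ± 0.023 in shsuz12 and 0.271 ± 0.018 in pLKO. UNG over PCNA was lowest in shG9a and highest in shsuz12, with no overlap of either group with pLKO.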
